A study of Mus musculus with 8 samples.

Results

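The genes described here are 10 genes of lipid droplets and lipolysis, taken by symbol from the 30495 genes of the deposited count table. Of these, 8 are genes that muscle cells use (Plin2, Plin3, Plin4, Plin5, Pnpla2, Lipe, Lpl and Dgat2), and 2 mark fat cells (Plin1 and Adipoq) and are kept apart. The study sequenced RNA of the right ventricle (RV) of female mice aged 8 weeks, in 4 groups of 2 libraries. Fpr2-KO SuHx mice lacked Fpr2, the gene of formyl peptide receptor 2, and were given 20 mg/kg of Sugen, which blocks VEGF receptors, with 3 weeks of hypoxia, a way to raise pressure in the lung arteries and load the right ventricle. Fpr2-KO control mice lacked the same gene and were kept at normal oxygen for 21 days. WT SuHx mice were wild type and had the same Sugen and hypoxia, and WT control mice were wild type at normal oxygen. The series asks what this receptor contributes to the difference between the sexes in right heart disease of pulmonary hypertension, and the mice of these samples were all female. The labels do not say how the knockout was made, or whether it is confined to a cell type.

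Cells store fatty acids as triglyceride in lipid droplets, whose surface is coated by perilipins. Adipose triglyceride lipase and hormone-sensitive lipase release the fatty acids step by step, and perilipins decide how far the lipases reach the store. The heart takes up much of its fat from blood triglyceride, which lipoprotein lipase splits on the capillary wall, and holds only a small, fast-turning droplet pool.

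Total counts per library lay between 67965311 and 76292772. Fpr2 itself had 0 counts in each of the 4 Fpr2-KO libraries, 12 and 12 in WT SuHx and 19 and 23 in WT control, so the libraries follow the genotype in their titles. Genes of heart muscle were abundant in every library, with 10 of them summing to 32462 to 47366 CPM (counts scaled to library size with TMM factors). Fpr2-KO SuHx library 2 stands apart by atrial genes: 8 atrial markers summed to 2734 CPM there, against 124 to 390 CPM in the other libraries. Library numbers are those of the table's columns: 2 and 3 in Fpr2-KO SuHx, 2 and 3 in Fpr2-KO control, 1 and 3 in WT SuHx, and 1 and 2 in WT control, and values are given in that order. In 3 of the 4 groups these numbers differ from those of the sample titles (1 and 2).

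Promoter sequences are shown for 3 members, since 7 of the 8 muscle genes were called lower with SuHx and these 3 differ in the motifs they hold. RefSeq's promoter table (GRCm38.p6, 250 bases before to 50 after the start) held 10 promoters of 8 members, and Lpl and Dgat2 had none in it. Capitals mark 2 motifs: TGACCT, which is the nuclear receptor half-site AGGTCA read on the other strand, and CACGTG, a palindromic E-box that contains the hypoxia response core ACGTG on both strands. The sequences run 5′ to 3′ on the gene's strand, at chr4:86670010-86670309 (minus) for Plin2, chr7:25395938-25396237 (minus, the upstream of 2 Lipe promoters) for Lipe and chr7:141454938-141455237 (plus) for Pnpla2.
Plin2: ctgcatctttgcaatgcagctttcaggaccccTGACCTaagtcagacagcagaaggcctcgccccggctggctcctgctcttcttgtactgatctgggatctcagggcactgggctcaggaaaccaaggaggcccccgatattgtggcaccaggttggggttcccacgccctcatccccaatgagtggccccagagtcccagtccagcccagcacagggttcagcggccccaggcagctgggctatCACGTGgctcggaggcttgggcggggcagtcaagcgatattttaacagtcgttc
Lipe: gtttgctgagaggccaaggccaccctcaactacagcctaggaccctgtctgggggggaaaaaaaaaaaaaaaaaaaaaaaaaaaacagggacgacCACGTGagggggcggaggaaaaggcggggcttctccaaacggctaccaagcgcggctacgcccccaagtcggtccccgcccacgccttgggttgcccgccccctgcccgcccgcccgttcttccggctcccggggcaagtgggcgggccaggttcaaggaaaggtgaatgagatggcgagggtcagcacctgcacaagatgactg
Pnpla2: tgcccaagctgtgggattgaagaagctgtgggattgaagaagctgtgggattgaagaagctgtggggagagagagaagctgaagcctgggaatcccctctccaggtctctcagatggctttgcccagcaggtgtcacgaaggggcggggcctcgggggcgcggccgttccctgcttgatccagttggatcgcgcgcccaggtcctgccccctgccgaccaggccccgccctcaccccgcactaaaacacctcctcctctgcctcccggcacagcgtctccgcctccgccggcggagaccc
In Plin2, CACGTG begins at position -4 from the start, and in Lipe at position -155. Both strands were searched for 5 motifs. AGGTCA was in 16.3% of 32817 RefSeq promoters of this length and in those of Plin2 and Plin5. The core ACGTG was in 19.6% of promoters and CACGTG, added to the search after the matches of its core were seen, in 7.15%, and both were in those of Plin2 and Lipe. AGGNCANAGGNCA, a direct repeat bound by PPAR with RXR, was in 0.381% of promoters and can contain AGGTCA, and AGAACA, a glucocorticoid receptor half-site, was in 19.0%. Neither was in a member's promoter. A match here describes letters in a window and not a bound site.

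Of the 8 muscle genes, 4 were called lower in Fpr2-KO SuHx than in Fpr2-KO control, and 7 were called lower in WT SuHx than in WT control. None was called higher in either. Calls are those of edgeR's quasi-likelihood test with a Benjamini-Hochberg adjusted p under 0.05 over 19083 tested genes. In Fpr2-KO, 5.75% of all tested genes were called lower and 4.93% higher with SuHx, and in WT 9.63% were called lower and 10.9% higher. With SuHx against control averaged over both genotypes, 7 of the 8 were called lower, where 14.1% of all genes were called lower and 15.5% higher. The median log2 fold change of the 8 genes with SuHx was -0.69 in Fpr2-KO and -1.38 in WT, while that of all tested genes was 0.02 in Fpr2-KO and 0.00 in WT. The share of counts from mitochondrial genes moved with SuHx too, at 26.4% and 27.4% in Fpr2-KO SuHx, 24.6% and 26.1% in Fpr2-KO control, 28.2% and 28.1% in WT SuHx, and 25.8% and 24.2% in WT control. Its part in the members' differences was not tested. In bulk tissue, fewer cells of a type and less RNA per cell cannot be told apart.

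**Figure D1:**
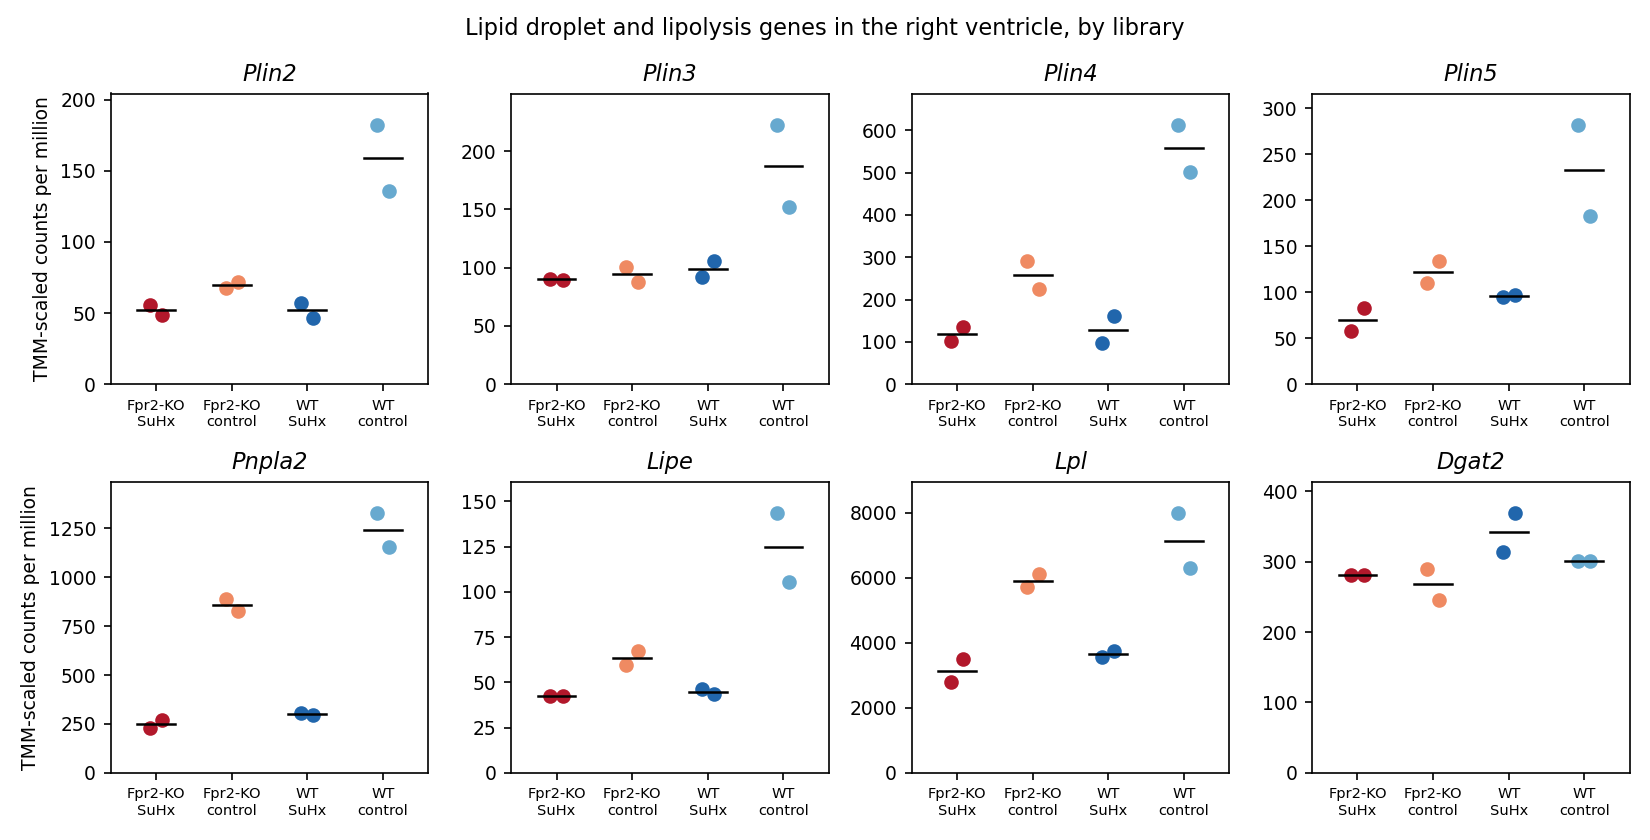
TMM-scaled CPM of the 8 muscle genes (y axis, linear, from 0) in each library (points) of the 4 groups (x axis), with the mean of a group's 2 libraries as a bar. WT control stands highest for all but Dgat2, and the SuHx libraries of both genotypes lie close together at the bottom for Plin2, Plin4, Pnpla2, Lipe and Lpl.

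Plin2 (ENSMUSG00000028494, mm10 chromosome 4, 86648386 to 86670060, minus strand) encodes the perilipin that coats droplets in most cells that are not fat cells, and its protein is kept only when droplets are present. It had 55.7 and 48.3 CPM in Fpr2-KO SuHx, 67.4 and 72.1 CPM in Fpr2-KO control, 57.2 and 46.4 CPM in WT SuHx, and 182 and 135 CPM in WT control. WT control stood apart from the other 3 groups, which lay within 46.4 to 72.1 CPM. In WT, Plin2 was 3.07-fold lower with SuHx (log2 fold change -1.62 ± 0.17 SE, edgeR adjusted p = 0.000849). In Fpr2-KO the SuHx libraries also lay below their controls, but the difference was not called (-0.42 ± 0.16, edgeR adjusted p = 0.132).

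Plin3, Plin4 and Plin5 lie on the minus strand of chromosome 17. Plin4 (56100591 to 56109803) and Plin5 (56111601 to 56117596) are 1797 bases apart, and Plin3 (56277476 to 56292873) lies further on. Plin3 (ENSMUSG00000024197) encodes a perilipin that moves between the cytosol and small, newly formed droplets. It had 90.5 and 89.6 CPM in Fpr2-KO SuHx, 101 and 87.8 CPM in Fpr2-KO control, 92.2 and 106 CPM in WT SuHx, and 223 and 152 CPM in WT control. Only the WT control libraries lay above the rest, and those of the 2 Fpr2-KO groups overlapped. With SuHx, Plin3 fell in WT by 0.92 ± 0.17 on the log2 scale (edgeR adjusted p = 0.00777), and in Fpr2-KO the estimate was -0.07 ± 0.17 (edgeR adjusted p = 0.853).

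Plin4 (ENSMUSG00000002831) encodes a perilipin with a long run of repeats that also binds small droplets, known mainly from fat and muscle. It had 101 and 136 CPM in Fpr2-KO SuHx, 291 and 225 CPM in Fpr2-KO control, 96.5 and 162 CPM in WT SuHx, and 613 and 501 CPM in WT control. All 4 SuHx libraries lay below all 4 controls, and the WT controls were the highest. Plin4 was 2.18-fold lower with SuHx in Fpr2-KO (log2 fold change -1.13 ± 0.27, edgeR adjusted p = 0.0428) and 4.32-fold lower in WT (-2.11 ± 0.28, edgeR adjusted p = 0.00333). At one end it overlaps Hdgfl2 by 17 bases, a gene that runs on the plus strand.

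Plin5 (ENSMUSG00000011305) encodes the perilipin of oxidative tissues such as heart, which holds back lipolysis and ties droplets to mitochondria. Plin5 levels were 57.5 and 82.4 CPM in Fpr2-KO SuHx, 109 and 134 CPM in Fpr2-KO control, 94.3 and 96.8 CPM in WT SuHx, and 282 and 183 CPM in WT control. The groups did not overlap within a genotype, and the control libraries of WT were the most spread. The log2 fold change with SuHx was -0.80 ± 0.23 in Fpr2-KO, which was not called (edgeR adjusted p = 0.0685), and -1.28 ± 0.23 in WT, which was (edgeR adjusted p = 0.00872).

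Pnpla2 (ENSMUSG00000025509, chromosome 7, 141455198 to 141460743, plus strand) encodes adipose triglyceride lipase, which removes the first fatty acid from triglyceride. It had 227 and 271 CPM in Fpr2-KO SuHx, 891 and 830 CPM in Fpr2-KO control, 305 and 295 CPM in WT SuHx, and 1328 and 1153 CPM in WT control. The 4 SuHx libraries lay far below the 4 controls. Pnpla2 was 3.46-fold lower with SuHx in Fpr2-KO (log2 fold change -1.79 ± 0.12, edgeR adjusted p = 0.000888) and 4.13-fold lower in WT (-2.05 ± 0.12, edgeR adjusted p = 0.00031). It was the muscle member with the smallest adjusted p in each genotype, and it was called in both genotypes in each of the 30 alternative fits, 15 per genotype.

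The lipase also has helpers and brakes. Abhd5, its activator, was at 41.4 and 41.8 CPM in Fpr2-KO SuHx, 29.2 and 37.1 CPM in Fpr2-KO control, 37.0 and 40.0 CPM in WT SuHx, and 37.9 and 33.3 CPM in WT control. G0s2, its inhibitor, was at 34.1 and 41.5 CPM in Fpr2-KO SuHx, 79.7 and 122 CPM in Fpr2-KO control, 29.3 and 31.6 CPM in WT SuHx, and 23.1 and 97.7 CPM in WT control. Neither was called in a SuHx comparison, and the WT control libraries of G0s2 lay on both sides of those of WT SuHx. Both were singled out for their tie to Pnpla2 and not by size of change.

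Lipe (ENSMUSG00000003123, chromosome 7, 25379527 to 25398710, minus strand) encodes hormone-sensitive lipase, which acts after Pnpla2, mainly on diacylglycerol. It had 42.7 and 42.5 CPM in Fpr2-KO SuHx, 59.6 and 67.1 CPM in Fpr2-KO control, 46.4 and 43.4 CPM in WT SuHx, and 144 and 106 CPM in WT control. The SuHx libraries of both genotypes lay within 42.5 to 46.4 CPM, with Fpr2-KO control above them and WT control above that. Lipe was 1.49-fold lower with SuHx in Fpr2-KO (log2 fold change -0.57 ± 0.14, edgeR adjusted p = 0.0413) and 2.78-fold lower in WT (-1.47 ± 0.15, edgeR adjusted p = 0.000803). Its whole span lies within 4732471J01Rik on the plus strand, which had 22 to 61 counts per library, and the strand setting of the counting is not given in the sources used here.

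Lpl (ENSMUSG00000015568, chromosome 8, 68880491 to 68906934, plus strand) encodes lipoprotein lipase, which muscle and fat cells make and the capillary wall displays. It was the most abundant of the 10 genes per length in every group. Its levels were 2787 and 3489 CPM in Fpr2-KO SuHx, 5708 and 6113 CPM in Fpr2-KO control, 3567 and 3738 CPM in WT SuHx, and 7987 and 6289 CPM in WT control. The 4 SuHx libraries lay below the 4 controls. Lpl was 1.88-fold lower with SuHx in Fpr2-KO (log2 fold change -0.91 ± 0.14, edgeR adjusted p = 0.00939) and 1.95-fold lower in WT (-0.97 ± 0.14, edgeR adjusted p = 0.00321).

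Dgat2 (ENSMUSG00000030747, chromosome 7, 99153658 to 99182719, minus strand) encodes an enzyme of the last step of triglyceride synthesis. It had 281.4 and 281.3 CPM in Fpr2-KO SuHx, 290.3 and 246 CPM in Fpr2-KO control, 314 and 369 CPM in WT SuHx, and 301.8 and 301.7 CPM in WT control. It was the muscle member called in no SuHx comparison: its log2 fold change with SuHx was 0.07 in Fpr2-KO (95% interval -0.19 to 0.33, edgeR adjusted p = 0.753) and 0.18 in WT (-0.08 to 0.44, edgeR adjusted p = 0.306). Both intervals leave out a fall as large as that of Lpl. Dgat1, the other enzyme of that step, averaged 16.8 ± 0.52 CPM in Fpr2-KO SuHx, 19.8 ± 1.89 CPM in Fpr2-KO control, 16.4 ± 0.29 CPM in WT SuHx and 19.3 ± 4.43 CPM in WT control (SD, n = 2 each), and was not called either.

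**Figure D2:**
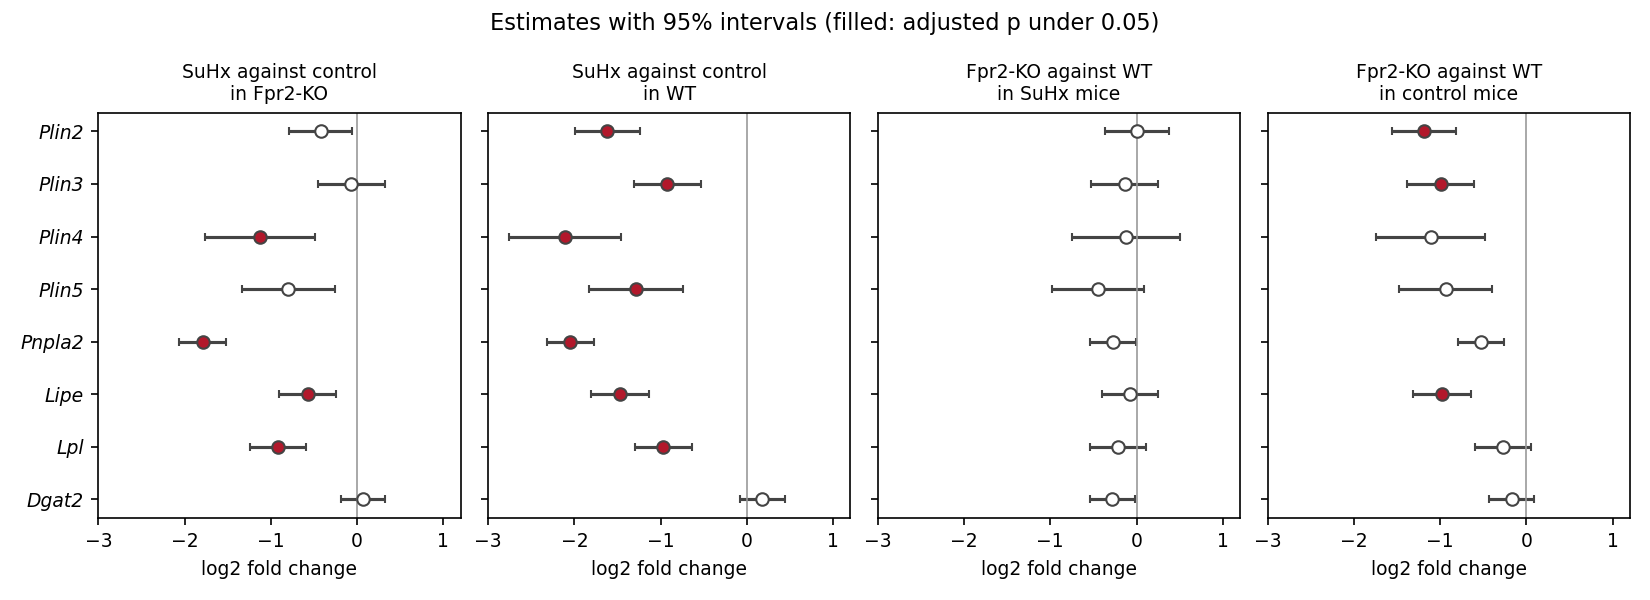
Log2 fold changes (x axis) of the 8 muscle genes (rows) in 4 comparisons (panels), with 95% intervals from the edgeR fit; filled points have an adjusted p under 0.05. With SuHx, 4 genes are filled in Fpr2-KO and 7 in WT, none is filled for Fpr2-KO against WT in SuHx mice, and Plin2, Plin3 and Lipe are filled for Fpr2-KO against WT in control mice.

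Several of the Fpr2-KO calls were lost when any Fpr2-KO library was left out, which leaves 1 library in its group. Without library 2 of Fpr2-KO SuHx, which carried the atrial genes, Pnpla2 alone was called lower in Fpr2-KO, and the edgeR adjusted p was 0.221 for Plin4, 0.188 for Lipe and 0.0619 for Lpl. Their log2 fold changes were then -0.93, -0.58 and -0.76, against -1.13, -0.57 and -0.91 with all libraries. Leaving out library 3 of Fpr2-KO SuHx left Pnpla2 and Lpl called, as did leaving out library 2 of Fpr2-KO control, and without library 3 of Fpr2-KO control Pnpla2 alone was called. In WT the 7 calls held without either control library, 5 held without WT SuHx library 1 and 6 without WT SuHx library 3, where Plin5 (both) and Plin3 (the first) lost theirs.

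Among control mice, Plin2, Plin3 and Lipe were called lower in Fpr2-KO than in WT, 3 of the 8 muscle genes, where 1.18% of all tested genes were called lower and 1.43% higher. Plin2 was 2.28-fold lower (log2 fold change -1.19 ± 0.16, edgeR adjusted p = 0.021), Plin3 1.99-fold lower (-0.99 ± 0.17, edgeR adjusted p = 0.0297) and Lipe 1.97-fold lower (-0.98 ± 0.15, edgeR adjusted p = 0.0223). Plin4, Plin5 and Pnpla2 had edgeR adjusted p of 0.0789, 0.0775 and 0.0541, with log2 differences of -1.11, -0.93 and -0.53. The values of Lpl (-0.27) and Dgat2 (-0.17) were smaller. Every Fpr2-KO control library was below every WT control library for all 8 genes. The share of all tested genes that separate in this way was not computed, so this count has no background. The median difference over the 8 was -0.96 and that over all tested genes -0.00.

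These 3 calls were lost in several fits. With either Fpr2-KO control library left out none of the 8 was called. Without WT control library 1 the count was 2 (Plin2 and Lipe), and without WT control library 2 it was 5. A fit of the 2 control groups alone called none of the 8 and 0 genes in all. DESeq2's Wald test called 6 of the 8.

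None of the 8 muscle genes was called between Fpr2-KO SuHx and WT SuHx, and 0% of all tested genes were called by edgeR. An unadjusted edgeR p under 0.05 was found for 664 genes (3.48%), a smaller share than that threshold gives with no difference. DESeq2 called 17 genes, none of them among the 8. The difference for Plin2 was 0.00 on the log2 scale (95% interval -0.36 to 0.37) and that for Lipe -0.08 (-0.41 to 0.25). Both Fpr2-KO SuHx libraries lay below both WT SuHx libraries for 6 of the 8 genes, namely Plin3, Plin5, Pnpla2, Lipe, Lpl and Dgat2. How many of all tested genes separate so was not computed, so this count too has no background. The largest estimate was that of Plin5, -0.45, and those of Pnpla2 (-0.27, interval -0.53 to -0.01) and Dgat2 (-0.28, interval -0.54 to -0.02) had intervals below 0, while the edgeR adjusted p was 1 for all 8. The widest intervals were those of Plin4 (-0.75 to 0.50) and Plin5 (-0.99 to 0.09).

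Whether the SuHx response differed between genotypes was asked by the interaction, Fpr2-KO response minus WT response. No member was called, and 0% of the tested genes were called by edgeR, while 2417 (12.7%) had an unadjusted p under 0.05. DESeq2 called 512 genes. The interaction was 1.19 ± 0.23 on the log2 scale for Plin2 (edgeR adjusted p = 0.122), 0.90 ± 0.20 for Lipe (edgeR adjusted p = 0.157) and 0.86 ± 0.24 for Plin3 (edgeR adjusted p = 0.218). For Plin4 it was 0.98 ± 0.38 (edgeR adjusted p = 0.357). For Lpl it was 0.05 (95% interval -0.40 to 0.51) and for Pnpla2 0.26 (-0.12 to 0.63). DESeq2 called Plin2, Plin3, Plin4 and Lipe, and edgeR called Plin2, Plin3 and Lipe when WT control library 2 was left out. This contrast shares the WT control libraries with the comparison of control mice, so a high WT control value enters both.

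Per length, in CPM per kilobase of merged exons (GENCODE M21 lengths, a level and not a difference), the order of the members changed with SuHx. In Fpr2-KO SuHx, Lpl came first at 299.5 ± 47.4 CPM per kilobase (SD, n = 2 here and below), then Dgat2 at 91.3 ± 0.033 and Pnpla2 at 82.4 ± 10.4. In Fpr2-KO control, Lpl stood at 564 ± 27.3, Pnpla2 at 285 ± 14.2 and Dgat2 at 87.0 ± 10.1. Pnpla2 was thus clear of Dgat2 in the controls, and after SuHx both of its libraries (75.0 and 89.7) lay under those of Dgat2 (91.3 and 91.2).

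WT mice showed the same order. In WT SuHx, Lpl was at 349 ± 11.5, Dgat2 at 111 ± 12.5 and Pnpla2 at 99.3 ± 2.19 CPM per kilobase, and in WT control Lpl was at 681 ± 115, Pnpla2 at 411 ± 41.0 and Dgat2 at 97.9 ± 0.0051. Among the perilipins, Plin5 had the highest mean in each group, with 33.5 ± 8.41 CPM per kilobase in Fpr2-KO SuHx, 58.3 ± 8.24 in Fpr2-KO control, 45.8 ± 0.85 in WT SuHx and 111 ± 33.6 in WT control. In the controls its libraries overlapped those of Plin4 in WT, where Plin4 was at 96.4 ± 13.8, and not in Fpr2-KO, where Plin4 was at 44.7 ± 8.07. After SuHx, Plin4 was at 20.5 ± 4.24 in Fpr2-KO and 22.3 ± 7.96 in WT, with means under those of Plin3.

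Plin3 was at 23.8 ± 0.17 CPM per kilobase in Fpr2-KO SuHx, 24.9 ± 2.43 in Fpr2-KO control, 26.1 ± 2.51 in WT SuHx and 49.5 ± 13.2 in WT control. Plin2 was the lowest perilipin of the muscle set by its mean, at 14.8 ± 1.48 in Fpr2-KO SuHx, 19.9 ± 0.95 in Fpr2-KO control, 14.8 ± 2.17 in WT SuHx and 45.2 ± 9.45 in WT control, where its libraries overlapped those of Plin3. Lipe was the lowest of the 8 in each group, at 7.24 ± 0.015 in Fpr2-KO SuHx, 10.8 ± 0.90 in Fpr2-KO control, 7.63 ± 0.35 in WT SuHx and 21.2 ± 4.55 in WT control. Plin1 and Adipoq were at most 0.0521 ± 0.00062 and 0.321 ± 0.14 as group means.

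Over the 8 libraries, the log2 CPM of Plin2 was most like that of Lipe (Pearson r = 0.989) and that of Pnpla2 most like that of Lpl (r = 0.982). Plin5 was most like Lipe (0.952), Plin4 like Pnpla2 (0.94) and Plin3 like Plin2 (0.91). Dgat2 had no close partner, with a highest r of 0.238, to Plin3. These correlations describe 8 libraries that share the 4 group means.

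The fat cell genes were close to absent. Plin1 (ENSMUSG00000030546, chromosome 7, 79720218 to 79732835, minus strand), the perilipin of fat cells, had 16 and 0 counts in Fpr2-KO SuHx, 17 and 16 in Fpr2-KO control, 10 and 0 in WT SuHx, and 8 and 8 in WT control. Adipoq (ENSMUSG00000022878, chromosome 16, 23146536 to 23158028, plus strand), the hormone adiponectin of fat cells, had 40 and 0 counts in Fpr2-KO SuHx, 0 and 0 in Fpr2-KO control, 0 and 0 in WT SuHx, and 20 and 41 in WT control. A count of 0 allows up to 3 counts, 0.0393 to 0.0441 CPM in these libraries, and this covers counting error only. Neither gene was called in any of the 6 comparisons, and both passed the filter on low counts through a few libraries, so no fold is given.

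**Figure D3:**
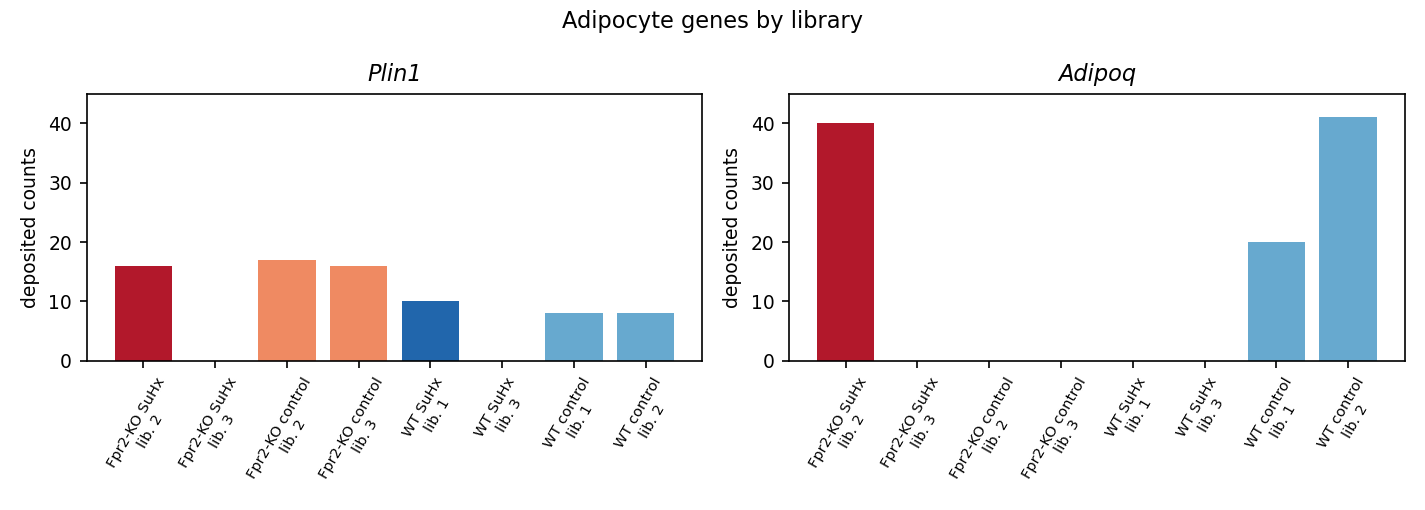
Deposited counts (y axis, linear, from 0) of Plin1 and Adipoq in each of the 8 libraries (bars, coloured by group). Adipoq is above 0 in Fpr2-KO SuHx library 2 and both WT control libraries only, and Plin1 stays at or below 17 counts throughout.

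Other fat cell genes had little RNA too. Ucp1, the uncoupling protein of brown fat, was at 0 in every library, and Lep, the hormone leptin, was above 0 in Fpr2-KO SuHx library 2 alone. Cfd, the fat cell protease adipsin, had 2.23 and 0.23 CPM in Fpr2-KO SuHx, 0.55 and 0 CPM in Fpr2-KO control, 0 and 0 CPM in WT SuHx, and 0.45 and 1.60 CPM in WT control. The 13 white fat markers other than these members summed to 40.6 to 51.3 CPM in Fpr2-KO SuHx, 21.4 to 25.9 CPM in Fpr2-KO control, 40.5 to 48.7 CPM in WT SuHx and 28.4 to 30.7 CPM in WT control. Thrsp and Slc36a2 made up most of that sum and were called higher with SuHx in both genotypes, so the sum ran opposite to the muscle members. Pck1, a gluconeogenic enzyme of the same list, had 0.15 and 0.24 CPM in Fpr2-KO SuHx, 0 and 0 CPM in Fpr2-KO control, 0 and 0 CPM in WT SuHx, and 0.57 and 0.68 CPM in WT control. It was called higher with SuHx in Fpr2-KO (edgeR adjusted p = 0.0423) and lower in WT (edgeR adjusted p = 0.0114). Each of these calls sets a group at 0 against values of 0.68 CPM or less. Pck1 passed the filter on low counts only through its groups above 0, so no fold is given and its calls are not read as a change. The 6 brown fat markers summed to 14.3 to 15.4 CPM in Fpr2-KO SuHx, 23.6 to 26.9 CPM in Fpr2-KO control, 15.4 to 15.5 CPM in WT SuHx and 25.96 to 27.5 CPM in WT control, lower with SuHx as the muscle members were. Cidea, which is called lower in both genotypes and described with the droplet genes, made up most of that sum. Dio2, of the same list, was called higher in the averaged comparison (0.90, edgeR adjusted p = 0.0282). What part fat cell RNA has in the members' differences was not tested. The 3 libraries with Adipoq counts are the 3 with the most Myl7, an atrial myosin gene. Myl7 was at 205 CPM in Fpr2-KO SuHx library 2 and 3.19 and 18.4 CPM in WT control, against at most 1.01 CPM in the others. Of the other atrial markers, Myl4, Sln, Bmp10 and Nppa had the same 3 libraries on top, and Stard10, Gja5 and Myh7b did not. Gja5 (2.57 CPM) and Myh7b (33.6 CPM) were lowest of all in WT control library 1. The atrial markers summed to 175 CPM there, against 194 CPM in WT SuHx library 1, which had 0 Adipoq counts. A tie between Adipoq and atrial tissue was not tested.

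Genes most like Plin1 over the 8 libraries, at a mean of at least 1 CPM, were Rpp25 (r = 0.949), Tent5c, E130102H24Rik, Gm15708 and Gstp-ps, and those most like Adipoq were Coq8b (r = 0.965), Aaas, Ccdc122, Rph3al and Ltbp3. None is on the fat cell lists. With so few counts these likenesses are a description of sparse values.

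The rest of the droplet pathway did not move as a block. Of 30 other tested genes of droplets and triglyceride turnover, 0 were called higher and 4 lower with SuHx in Fpr2-KO, and 4 higher and 6 lower in WT, with median log2 fold changes of -0.11 in Fpr2-KO and -0.07 in WT. Of all tested genes, 4.93% were called higher and 5.75% lower in Fpr2-KO, and 10.9% higher and 9.63% lower in WT. These shares are the background for this list and for those below. Calls in this list were 3 in WT without either WT SuHx library. In Fpr2-KO they were 2 without either Fpr2-KO SuHx library, without either WT SuHx library or without Fpr2-KO control library 3. Averaged over genotypes, Hsd17b11, a droplet-bound dehydrogenase, fell by 1.51 ± 0.13 on the log2 scale (edgeR adjusted p = 0.000232), and Cidea, which enlarges droplets, fell by 0.92 ± 0.08. Cidea had 12.6 and 12.6 CPM in Fpr2-KO SuHx, 22.6 and 25.4 CPM in Fpr2-KO control, 13.7 and 13.6 CPM in WT SuHx, and 26.7 and 24.9 CPM in WT control, and did not differ between control genotypes by a called amount (-0.11). Gpam and Agpat3, which act early in glycerolipid synthesis, were called lower in the averaged comparison (-0.53 and -0.57), while Fitm1, a muscle protein of droplet formation, and Lpin3, a phosphatidate phosphatase, rose by 0.61 and 0.59.

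Of 15 other tested genes around lipoprotein lipase, 1 was called higher and 2 lower with SuHx in Fpr2-KO, and 2 higher and 5 lower in WT. Without Fpr2-KO control library 3 the calls in Fpr2-KO numbered 1, and without WT SuHx library 1 or library 3 those in WT numbered 4 and 1. Cd36, a fatty acid transporter of the cell surface, had 1161 and 1461 CPM in Fpr2-KO SuHx, 2612 and 3059 CPM in Fpr2-KO control, 1463 and 1508 CPM in WT SuHx, and 3127 and 2913 CPM in WT control. It fell in both genotypes, by 1.11 ± 0.13 in Fpr2-KO and by 1.02 ± 0.13 in WT (edgeR adjusted p = 0.00393 in Fpr2-KO and 0.00174 in WT). In the averaged comparison the fatty acid binding proteins Fabp3 (of muscle) and Fabp4 (of capillaries and fat) were called lower (-0.80 and -0.48), and the receptor Vldlr fell by 0.64. Fabp5, another binding protein, and Lmf1, which matures lipoprotein lipase, rose by 0.88 and 0.66. Gpihbp1, which carries the lipase to the capillary wall, was called lower in Fpr2-KO control than in WT control (-0.86 ± 0.16, edgeR adjusted p = 0.036), at 46.6 and 54.7 CPM in Fpr2-KO control against 105 and 78.3 CPM in WT control. It was the only gene of this list called there, and the list had 0 calls when any single library other than WT control library 2 was left out, with the replicate block and in the fit of the control groups alone. Angptl4, which inactivates the lipase, had 2.04 and 3.92 CPM in Fpr2-KO SuHx, 3.17 and 13.2 CPM in Fpr2-KO control, 10.8 and 1.88 CPM in WT SuHx, and 64.9 and 31.6 CPM in WT control, and was not called in any comparison. With SuHx, Gpihbp1 was called lower in WT (-0.60 ± 0.16, edgeR adjusted p = 0.0331) and not called in Fpr2-KO (0.05 ± 0.16, edgeR adjusted p = 0.889), with an uncalled interaction. Gpihbp1 and Angptl4 were picked for their tie to Lpl.

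Of 17 tested genes of hormonal control of lipolysis, 0 were called higher and 3 lower with SuHx in Fpr2-KO, and 2 higher and 4 lower in WT. The WT calls numbered 2 without either WT SuHx library. Leaving out WT control library 1 gave 3 in WT, and the calls in Fpr2-KO were 5 without either WT control library. Insr, the insulin receptor gene, and Irs2, which relays its signal, were called lower in the averaged comparison (-1.06 ± 0.07 and -1.67 ± 0.31). Adcy6, which makes cyclic AMP, fell by 0.77, and the phosphodiesterases Pde3a and Pde4d, which break it down, were called lower too (-0.61 and -0.55). Prkaca, the catalytic subunit of protein kinase A, was called higher in WT alone (0.30 ± 0.08, edgeR adjusted p = 0.0357), with -0.05 in Fpr2-KO and an uncalled interaction.

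**Figure D4:**
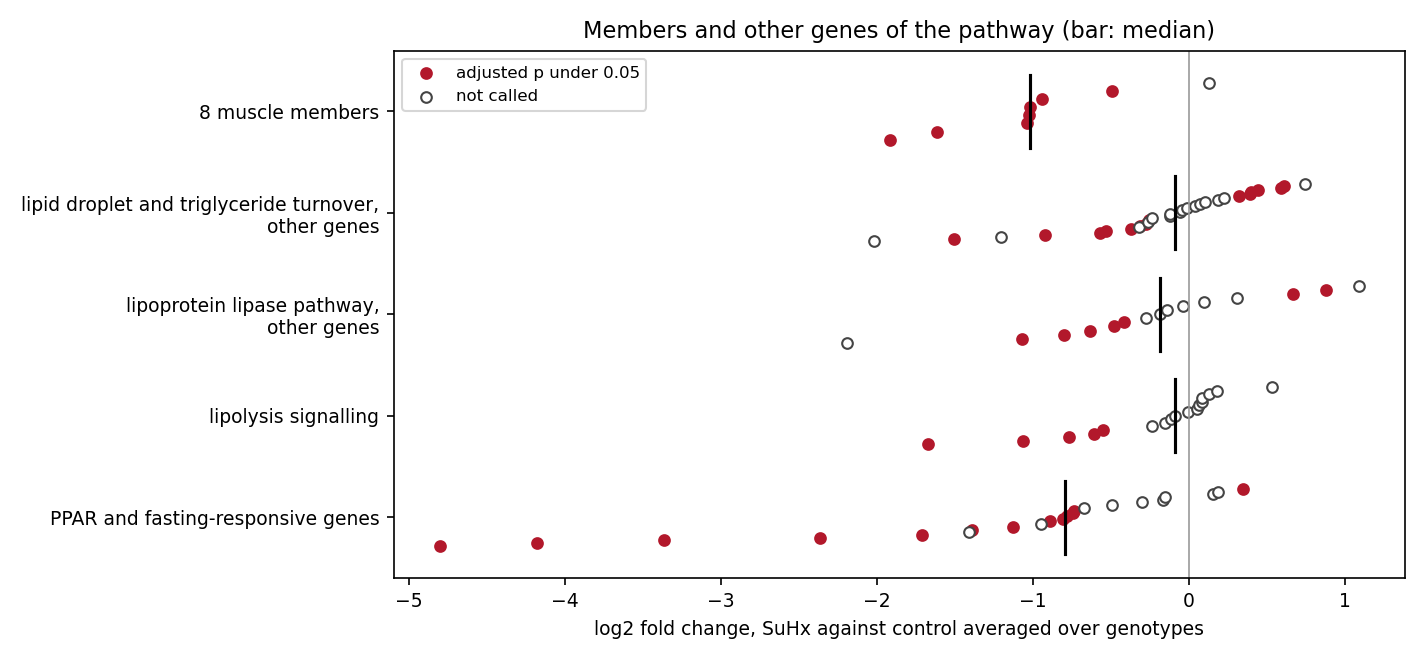
Log2 fold change with SuHx against control averaged over genotypes (x axis) for the 8 muscle members and the tested genes of 4 pathway lists (rows; each point is a gene, filled red at an edgeR adjusted p under 0.05, the bar is the median). The members' median is -1.02 and the median of the PPAR and fasting-responsive genes -0.79, while the other 3 lists have medians between -0.18 and -0.09.

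Of 22 tested PPAR, fasting-responsive and glucocorticoid-responsive genes, 0 were called higher and 8 lower with SuHx in Fpr2-KO, and 1 higher and 12 lower in WT, with medians of -0.53 in Fpr2-KO and -0.95 in WT. Between 4 and 5 were called in Fpr2-KO when any of its own libraries was left out. Acot1 and Acot2, acyl-CoA thioesterases, were called lower in the averaged comparison (-4.17 and -2.36). Ppargc1a, a coactivator of oxidative genes, fell by 1.39. Glucocorticoid-induced genes were mostly uncalled: Per1, a clock gene, had log2 fold changes of -0.31 in Fpr2-KO and -1.59 in WT (edgeR adjusted p = 0.714 in Fpr2-KO and 0.0553 in WT). Klf15 had 0.82 in Fpr2-KO and -0.44 in WT, and Tsc22d3 0.40 in Fpr2-KO and -0.09 in WT. Zbtb16 had -0.49 in Fpr2-KO and -2.34 in WT (edgeR adjusted p = 0.662 in Fpr2-KO and 0.0521 in WT). Klf9 had 0.28 in Fpr2-KO and -0.59 in WT, and Sgk1 -0.47 in Fpr2-KO and -0.53 in WT. None of these genes from Per1 to Sgk1 was called. Their WT estimates ran from -0.09 ± 0.41 for Tsc22d3 to -2.34 ± 0.62 for Zbtb16. The share of all tested genes below 0 in WT was not computed, and the median over them was 0.00. The genes from Per1 to Sgk1 were singled out after their values were seen.

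Pdk4, which shuts off pyruvate use in fasting, had 106 and 160 CPM in Fpr2-KO SuHx, 724 and 761 CPM in Fpr2-KO control, 262 and 119 CPM in WT SuHx, and 4672 and 2544 CPM in WT control. Fkbp5, induced by glucocorticoids, had 20.3 and 21.9 CPM in Fpr2-KO SuHx, 28.7 and 28.7 CPM in Fpr2-KO control, 8.30 and 23.3 CPM in WT SuHx, and 167 and 83.3 CPM in WT control, and was called lower with SuHx in WT (edgeR adjusted p = 0.0186) and not in Fpr2-KO (edgeR adjusted p = 0.657). Both were highest in WT control library 1, which also had the highest value of Plin2, Plin3, Plin4, Plin5, Pnpla2, Lipe and Lpl. The 22 genes summed to 1445 to 1720 CPM in Fpr2-KO SuHx, 3325 to 3393 CPM in Fpr2-KO control, 1718 to 1804 CPM in WT SuHx and 6126 to 8681 CPM in WT control. The part that these genes' regulators have in the members' differences was not tested.

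The 10 heart muscle genes summed to 38443 to 41085 CPM in Fpr2-KO SuHx, 35087 to 43716 CPM in Fpr2-KO control, 45893 to 47366 CPM in WT SuHx and 32462 to 33198 CPM in WT control. In WT the sum was higher with SuHx, and 3 of the 10 genes were called higher and 0 lower there. Myh6, the most abundant of them, was not called in WT (edgeR adjusted p = 0.0904). Within the list, Tnnt2 (-0.33, edgeR adjusted p = 0.00896) and Actn2 (-0.27, edgeR adjusted p = 0.0214), both of the sarcomere, were called lower in the averaged comparison, and 5 others (Actc1, Mybpc3, Ryr2, Tnnc1 and Myl2) were called higher by 0.27 to 1.13 on the log2 scale. The 9 endothelial markers summed to 863 to 1010 CPM in Fpr2-KO SuHx, 737 to 767 CPM in Fpr2-KO control, 1016 to 1113 CPM in WT SuHx and 717 to 760 CPM in WT control. The 8 fibroblast markers summed to 1408 to 1474 CPM in Fpr2-KO SuHx, 1134 to 1140 CPM in Fpr2-KO control, 1174 to 1211 CPM in WT SuHx and 1033 to 1203 CPM in WT control. This sum hides opposed changes: with SuHx, 4 were called higher and 2 lower in WT, and 3 higher and 0 lower in Fpr2-KO. In WT, Dcn, the most abundant, and Pdgfra were called lower (-0.76 and -0.61). Lum, Col1a1, Col1a2 and Col3a1 were called higher there, by 1.10 to 2.67 on the log2 scale. Macrophage markers, 10 in number, summed to 505 to 515 CPM in Fpr2-KO SuHx, 279 to 380.2 CPM in Fpr2-KO control, 428 to 536 CPM in WT SuHx and 209 to 305 CPM in WT control. Their part in the members' differences was not tested.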

How the data were processed

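Poly(A) RNA of 8 samples of mouse right ventricle was sequenced in pairs, per the labels' protocols, from dUTP libraries. The deposited table holds, for each library, whole-number counts per gene, which the authors did not normalize as far as the values show. Another 8 value columns were not used. HISAT2 2.2.1, cutadapt 1.9, edgeR, StringTie 2.1.6 and DESeq2 are named, with mm10, per the submitters' processing notes. The sources used here do not give what each did, the counting's strand setting or the gene annotation. Among low counts the value 4 occurs 8230 times, 3 occurs 3788 times and 5 occurs 2477 times, so a count may be more than 1 per read pair, and counts divided by 4 were tried, an alternative chosen after seeing the data.

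Samples were grouped by title. Column numbers differ from title numbers (1 and 2) in 3 of the 4 groups, so those 6 columns were matched to a group by name and not to a sample. The titles were followed where the genotype field disagreed, which reads Fpr3-KO, Fpr4-KO or Fpr5-KO in 3 of the knockout samples. The labels do not say that samples of a group are separate animals, so p-values measure no more than the spread between samples, and that may be technical. Libraries of a group differed far beyond sampling noise (chi-square per degree of freedom 23.6 to 76.8).

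Counts were fitted with edgeR 4.0.16 (R 4.3.3; TMM, filterByExpr, robust quasi-likelihood, 1 mean per group, 4 residual degrees of freedom, two-sided, Benjamini-Hochberg over 19083 tested genes, with 11412 removed), checked on simulated data. DESeq2 1.42.0, other filters and scalings, and leaving out libraries were alternatives. Standard errors of log2 fold changes come from the F statistic, and levels per length use merged exons of GENCODE M21. All 10 members are named, and of each of the 4 pathway lists the 6 genes with the largest averaged change among those called in a SuHx comparison, at 1 CPM or more; genes picked otherwise are marked so or belong to the cell type markers. Of the listed pathway genes, Ldaf1 was not analysed here. A named pathway gene is not reported here. Members, lists and tests were chosen with earlier results of these data known. Precision is limited by 2 libraries per group and not by depth.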

Additional observations from a re-analysis of the deposited data

How the results depend on the processing

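With 2 libraries per group, the number of libraries limits these results more than depth. The 7 SuHx calls in WT held in the 7 other fits, and leave-one-out gave 5 to 7. In Fpr2-KO, where 4 of the 8 muscle genes were called, leave-one-out gave 1 to 4, and leaving out 2 libraries (Fpr2-KO SuHx library 2 with WT control library 1) gave 2. Averaged over genotypes, the count of 7 became 6 to 7 with a library left out.

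For Fpr2-KO against WT in control mice, with 3 called, DESeq2 gave 6, the 2 libraries left out gave 0, the fit of only the 2 groups gave 0, the replicate block by column number gave 0, and leave-one-out gave 0 to 5. For the interaction, with 0 called, DESeq2 gave 4 and leave-one-out 0 to 3. Between genotypes in SuHx mice none of the 8 was called under any setting. The replicate block also ended the call of Plin4 with SuHx in Fpr2-KO (edgeR adjusted p = 0.0704) and gave one to Plin5 (0.0214). Same-numbered libraries of the Fpr2-KO groups did not deviate together (r = 0.00129 over 19083 genes). The WT groups share only number 1, and pairing there or across genotypes was not examined. The column numbers differ from those of the titles in 3 groups, so the block is by column number alone.

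Over all genes, control mice had 497 calls between genotypes, 1785 with DESeq2, 43 with the 2 libraries left out, 9 with the replicate block, 0 with only the 2 groups and 0 to 2370 in leave-one-out. With SuHx in Fpr2-KO there were 2038 calls, 937 with the 2 libraries left out, 1164 with the block and 290 to 3051 in leave-one-out. In WT there were 3919, then 2233 and 1328 to 4289. Averaged, there were 5646 and 3498 to 5844. In SuHx mice the 0 calls became 17 with DESeq2 and 0 to 5 in leave-one-out, and for the interaction 512 and 0 to 756. With a library left out, calls in the droplet list were 2 to 6 in Fpr2-KO and 3 to 13 in WT, around lipoprotein lipase 1 to 4 and 1 to 7, in lipolysis signalling 2 to 5 and 2 to 5, and among PPAR and fasting genes 4 to 10 and 10 to 15.

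Sign reversals were all in uncalled estimates, and the cause was not tested. With SuHx in Fpr2-KO, leave-one-out ranged from -0.16 to 0.037 for Plin3 and from -0.044 to 0.19 for Dgat2. Between genotypes in SuHx mice it ranged from -0.14 to 0.16 for Plin2 and from -0.45 to 0.29 for Plin4. With the 2 libraries left out these were -0.10 and 0.074. Lipe there was 0.094 with the replicate block. For the interaction the range was -0.13 to 0.21 for Lpl and -0.23 to 0.00763 for Dgat2. The planned limma fits on other value columns of the table were not run.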
